A study of Mus musculus with 5 samples.

Results

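NELF, the negative elongation factor, was profiled through 2 of its subunits, NELF-A and NELF-B, in primary epithelial cells of the mouse mammary gland. Every peak of both lists was taken: 10782 NELF-A peaks and 3925 NELF-B peaks, together 14707 of the 32456 peaks in the series. The other peaks, of RNA polymerase II (RNAPII, 7718) and of R-loops by DRIP-seq (10031), served as independent readouts. A subunit was counted as present at a site of the other where the peaks overlapped by 1 bp or more.

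The lists name no genes, so the labelled cell type was not checked against its markers. The cells came from thoracic and inguinal glands of virgin mice aged 6 to 8 weeks, of mixed strain, with no treatment or mutation named for the groups used here. NELF-A and NELF-B chromatin was immunoprecipitated with antibodies made in the laboratory, and 0.2 ng of DNA from each was amplified over 18 PCR cycles. RNAPII chromatin started from 1 ng and 15 cycles. DRIP, with an R-loop antibody from Kerafast, also took 15 cycles, and for RNAPII (Abcam antibody) and DRIP 1 list stands for replicates 1 and 2. There is 1 list per subunit, and the number of animals behind it is not given, so no spread between replicates exists and each interval below covers counting error alone. The sequencing depth is unknown. In chromatin of many cells, a site bound in few cells and a site bound weakly in all cells cannot be told apart.

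NELF is assembled from NELF-A, NELF-B, NELF-C or its shorter form NELF-D, and NELF-E. NELF-A carries the main contact with RNAPII, while NELF-B links to NELF-E, whose RNA recognition motif binds nascent RNA. The complex, with DSIF, holds RNAPII in a pause shortly after initiation until the kinase P-TEFb releases it. NELF-B was first described as COBRA1, a cofactor of the breast cancer protein BRCA1, and NELF works as a single assembly of these subunits.

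NELF-A was listed at far more sites than NELF-B, and the NELF-B sites were almost a subset of the NELF-A sites. The NELF-A list held 2.75 times as many peaks and 3.72 times the covered length, 10.5 Mb against 2.83 Mb. NELF-B was listed at 32.9% of NELF-A peaks (3547 of 10782, 95% Wilson interval 32.0 to 33.8%), and NELF-A at 92.5% of NELF-B peaks (3631 of 3925, 91.6 to 93.3%). These shares, over all peaks of each list, are the background for the counts that follow. By bases, the 2.61 Mb shared made up 24.8% of the NELF-A bases and 92.2% of the NELF-B bases. Antibody, depth and peak threshold differ between the lists or are not given, and their parts in the difference in list size cannot be told apart.

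The lists also differed in shape. NELF-A peaks ran from 250 to 25000 bp with a median of 1000 bp, and 21.02% were 500 bp or narrower. NELF-B peaks ran from 250 to 22750 bp with a median of 750 bp, and 48.5% were 500 bp or narrower. Each peak has a score, a whole number by the authors with no stated unit, which ranged from 9 to 3128 in the NELF-A list (median 24) and from 7 to 1092 in the NELF-B list (median 10). Many peaks sat at the floor: 1132 NELF-A peaks (10.5%) had the lowest score, 9, and 1125 NELF-B peaks (28.7%) had the lowest score, 7. The NELF-B list thus held relatively more narrow peaks and more peaks at its floor.

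The share of NELF-A peaks with NELF-B rose with the NELF-A score. At the lowest score, 9, NELF-B was listed at 1.68% of NELF-A peaks (19 of 1132, 1.08 to 2.61%). At scores of 21 to 24 it was listed at 18.9% (16.6 to 21.6%), and at scores of 37 to 45 at 56.7% (53.7 to 59.6%). Among peaks of score 62 or more, 92.6% (989 of 1068, 90.9 to 94.0%) had NELF-B. Weak NELF-A sites therefore almost never had a listed NELF-B peak and strong sites nearly always did. Of the 265 NELF-A peaks with a score of 100 or more, 5 lacked NELF-B, and the first peak without it ranked 62 by score. In 5 score classes of roughly equal size, used from here on, the shares were 3.87% (scores 9 to 13), 10.3% (14 to 20), 24.9% (21 to 30), 48.0% (31 to 45) and 81.3% (46 and above). Counting NELF-B peaks within 1000 bp as present raised the lowest class to 7.45%.

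**Figure D1:**
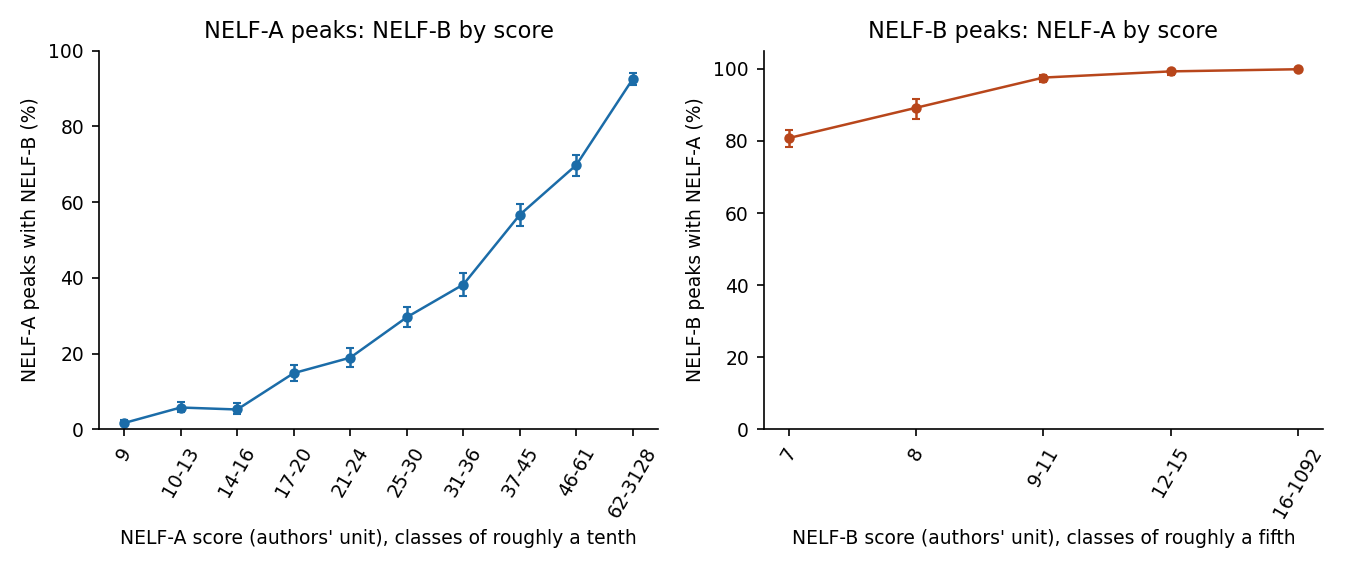
Left, share of NELF-A peaks that overlap NELF-B (%) in 10 classes of NELF-A score; right, share of NELF-B peaks that overlap NELF-A (%) in 5 classes of NELF-B score. Points are shares and bars 95% Wilson intervals; the left share runs from 1.68% at score 9 to 92.6% at 62 and above, and the right share from 80.8% at score 7 to 99.9% at 16 and above.

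Taking equally long lists did not make the subunits coincide fully. The 4006 NELF-A peaks with a score of 32 or more, about as many as the NELF-B list holds, had NELF-B at 66.4% (64.9 to 67.8%), and they accounted for 70.1% of NELF-B peaks (68.7 to 71.6%). The remaining NELF-B peaks on NELF-A lay on NELF-A peaks of lower score. Among 3422 pairs in which 1 NELF-A peak overlapped 1 NELF-B peak and no other, the scores ranked alike only in part: Spearman's rho was 0.59 across pairs for the score and 0.43 for the score divided by width. It was 0.58 across the 2854 pairs on RNAPII and 0.22 across the 568 pairs off RNAPII, where scores span a narrower range. These correlations describe the sites of a single pair of libraries, and they share the width of the bound region.

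Seen from NELF-B, a missing NELF-A peak was mostly seen at the weakest sites. NELF-A was listed at 80.8% of NELF-B peaks of score 7 (909 of 1125), at 89.2% of those of score 8, at 97.6% of those of 9 to 11, and at 99.9% of those of 16 and above (773 of 774). By width, it was listed at 85.6% of NELF-B peaks of 500 bp and at 98.9% of those of 750 bp. The NELF-B peaks over 1500 bp, 41 in number, overlapped NELF-A in each case.

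Width and score rise together (Spearman's rho across peaks 0.88 for NELF-A and 0.87 for NELF-B), so the width of NELF-A peaks was examined both alone and at like score. Alone, the share with NELF-B rose from 12.3% of narrow NELF-A peaks (up to 750 bp, 11.4 to 13.3%) through 47.2% of peaks of 1000 to 1500 bp (45.8 to 48.6%) to 74.8% of wider ones (71.5 to 77.9%). At like score the order turned in the middle of the range, where compact NELF-A peaks had NELF-B more often than broad ones. In the class of scores 31 to 45, NELF-B was listed at 57.9% of narrow peaks (125 of 216, 51.2 to 64.3%), 47.5% of peaks of 1000 to 1500 bp (45.2 to 49.8%) and 29.2% of wider ones (21 of 72, 19.9 to 40.5%). Among scores of 46 and above the 3 widths gave 83.6%, 81.7% and 80.2%, with overlapping intervals. An odds ratio compares the odds of having NELF-B between groups of NELF-A peaks, and 1 means no difference. Pooled over each score value, it was 1.66 (1.42 to 1.95) for narrow peaks against those of 1000 to 1500 bp, and 0.32 (0.25 to 0.41) for the wider ones against the same. With the 5 score classes in place of each score value, these were 1.27 (1.09 to 1.47) and 0.79 (0.64 to 0.98). The order depends on how strength is expressed: pooled over classes of score per base, narrow peaks had NELF-B less often than those of 1000 to 1500 bp, with an odds ratio of 0.34 (0.30 to 0.38). Wider peaks then had NELF-B more often in each class, for example 70.1% (63.6 to 75.8%) against 51.1% (48.5 to 53.7%) in the fourth. The lowest 2 classes held only 8 and 27 of the wider peaks, and there the intervals overlapped. Restricting each list to the upper 50% by score left 605 of the 4982 narrow peaks, and the share among these was 24.8%.

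RNAPII marked the sites where both subunits were listed. RNAPII overlapped 54.1% of all NELF-A peaks and 77.8% of all NELF-B peaks. It overlapped 83.6% of the NELF-A peaks with NELF-B (2967 of 3547, 82.4 to 84.8%) and 39.7% of those without (2871 of 7235, 38.6 to 40.8%). Put the other way, NELF-B was listed at 50.8% of NELF-A peaks on RNAPII (49.5 to 52.1%) and at 11.7% of those off RNAPII (10.9 to 12.7%), an odds ratio of 7.78 (7.03 to 8.60). Most of this went along with the NELF-A score, since 96.5% of peaks scoring 46 and above lay on RNAPII against 20.2% of those scoring 9 to 13. Pooled over the 5 score classes the odds ratio was 1.96 (1.73 to 2.22), and pooled over each score value 1.71 (1.50 to 1.94), so a smaller excess remained at like score.

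The excess at RNAPII was largest in the highest of the 5 score classes. Among scores of 9 to 13, NELF-B was listed at 4.90% of NELF-A peaks on RNAPII and 3.61% of those off it, an odds ratio of 1.38 (0.86 to 2.21) whose interval includes no difference. At scores of 31 to 45 NELF-B was at 52.5% on RNAPII and 30.9% off it, which gives 2.48 (1.97 to 3.10). Among scores of 46 and above the figures were 82.4% (1689 of 2051) and 52.0% (39 of 75). That odds ratio, 4.31 (2.70 to 6.87), was 3.13 times (1.61 to 6.09) that of the lowest class. Scores were not alike within this open class, since they reached 3128 on RNAPII and 172 off it. Within the class the share with NELF-B rose from 69.8% at scores of 46 to 61 to 92.6% at 62 and above. The part of this in the excess was not tested. Strong NELF-A sites off RNAPII were few, 75 in all, and the interval of their share with NELF-B runs from 40.9 to 62.9%.

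**Figure D2:**
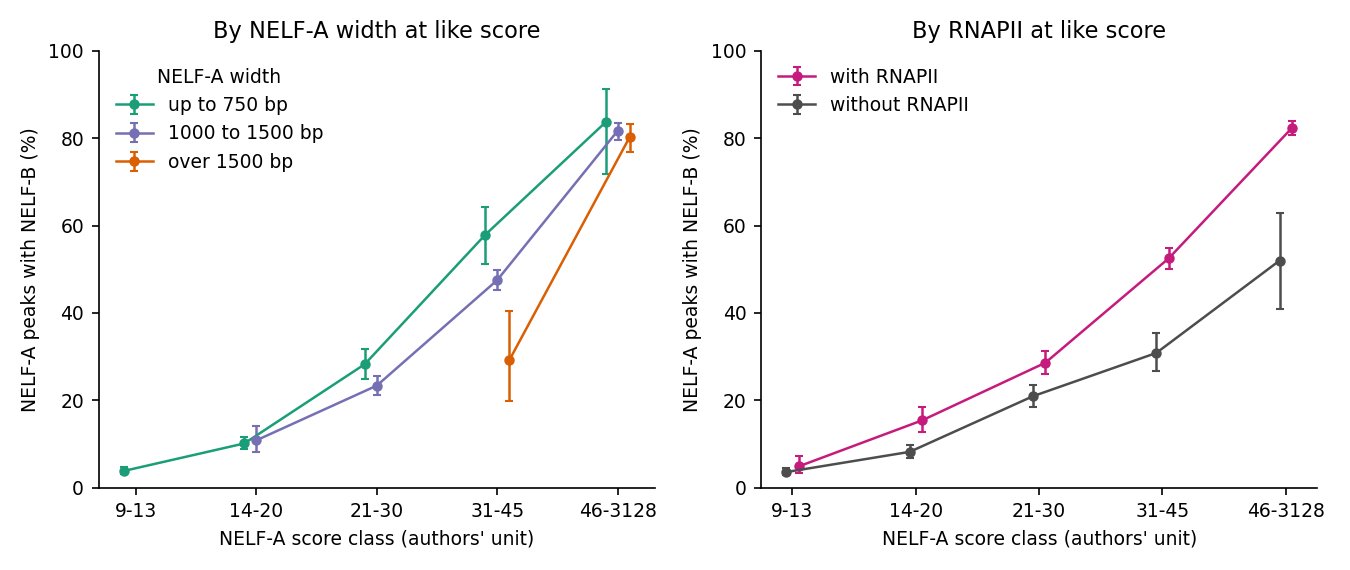
Share of NELF-A peaks that overlap NELF-B (%) in 5 classes of NELF-A score, split by NELF-A width on the left (classes of at least 20 peaks) and by overlap with RNAPII on the right. Points are shares and bars 95% Wilson intervals; at scores of 31 to 45 narrow peaks reach 57.9% and the widest 29.2%, and at 46 and above peaks with RNAPII reach 82.4% and those without 52.0%.

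The RNAPII score per base also went with NELF-B. Among NELF-A peaks on RNAPII, the share with NELF-B rose from 34.9% (32.2 to 37.6%) in the lowest of 5 classes of RNAPII score per base to 71.1% (68.4 to 73.7%) in the highest. Pooled over classes of NELF-A score, the odds ratio of the highest against the lowest was 1.59 (1.26 to 2.01). By the RNAPII score itself the share levelled off, at 62.1% (59.3 to 64.9%) in the fourth class and 61.01% (58.2 to 63.8%) in the highest. Between narrow and wide RNAPII peaks, the share with NELF-B differed beyond its intervals only in the highest class of NELF-A score, which has no upper limit. At NELF-A scores of 46 and above, NELF-B was listed at 66.2% (59.5 to 72.3%) of NELF-A peaks on RNAPII peaks up to 750 bp and at 86.3% (84.05 to 88.3%) of those on RNAPII peaks over 1500 bp. At 31 to 45 the shares were 51.7% (47.7 to 55.7%) and 44.4% (38.6 to 50.3%), whose intervals overlap. The pooled odds ratio of 1.08 (0.90 to 1.29) averages over these classes.

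Where NELF-B lay on RNAPII, NELF-A was almost always there as well. NELF-A was listed at 99.1% of NELF-B peaks on RNAPII (3024 of 3053, 98.6 to 99.3%) and at 69.6% of NELF-B peaks off RNAPII (607 of 872, 66.5 to 72.6%). At like NELF-B score the pooled odds ratio was 22.5 (15.1 to 33.6). It was 8.99 in the upper 50% of each list by score, 8.51 with every peak set to 500 bp, and 37.5 with peaks within 1000 bp counted, and its interval stayed above 1 in each case. These settings applied to the RNAPII list too, so they also altered which peaks counted as on RNAPII.

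Several NELF-A peaks on the same RNAPII peak allowed a comparison within a locus. Of the RNAPII peaks with NELF-A, 5307 had 1 NELF-A peak and 276 had more. In 140 of these 276, some NELF-A peaks had NELF-B and others did not. The highest-score NELF-A peak was one with NELF-B in 129 of the 140 (92.1%, 86.5 to 95.6%). On these domains the 150 NELF-A peaks with NELF-B had a median score of 64 and a median width of 1250 bp, and the 169 without had 14 and 750 bp. Stronger NELF-A sites thus carried the listed NELF-B within single RNAPII peaks too, as over the whole list.

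R-loops, hybrids of nascent RNA with its template DNA, are known to form behind elongating or stalled polymerases, and DRIP-seq maps them. DRIP overlapped 13.9% of all NELF-A peaks and 20.1% of all NELF-B peaks. The relation of DRIP to NELF-B differed with RNAPII. Among NELF-A peaks on RNAPII, NELF-B was listed at 61.1% of those with DRIP and 47.8% of those without, but pooled over score classes the odds ratio was 1.03 (0.88 to 1.21). With classes of score per base in place of score it was 1.41 (1.21 to 1.64), so this value too depends on how NELF-A strength is expressed. The pooled value also joins classes whose shares stood in different orders. At scores of 21 to 30, NELF-B was listed at 21.01% of NELF-A peaks with DRIP (15.05 to 28.6%) and 29.7% of those without (26.9 to 32.7%). These intervals overlap slightly. At 46 and above the order was the opposite, with 85.8% (83.1 to 88.1%) against 80.4% (78.1 to 82.4%). In that open class scores reached 3128 with DRIP and 187 without, so they were not alike. Counting peaks within 1000 bp gave 1.14 (1.00 to 1.31).

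Off RNAPII, NELF-A peaks with DRIP had NELF-B more often in all 5 score classes. The share was 34.9% with DRIP (59 of 169, 28.1 to 42.4%) and 10.9% without (521 of 4775, 10.1 to 11.8%). Already at scores of 9 to 13 it was 18.0% with DRIP (11 of 61) against 3.14% without (59 of 1879). The 2 highest score classes held only 17 and 11 peaks with DRIP. In the highest, the intervals of 52.3 to 94.9% with DRIP and 35.2 to 58.9% without overlapped. The pooled odds ratio was 4.08 (2.82 to 5.91), or 3.95 times (2.64 to 5.90) that on RNAPII. Leaving out 16 regions of extra-high signal, which are treated further on, it was 3.55 (2.42 to 5.22), and it was 1.68 (1.22 to 2.31) with every peak set to 500 bp. The ratio between off and on RNAPII was then 3.53 (2.33 to 5.36) and 1.73 (1.14 to 2.62). The 500 bp setting also resized the RNAPII and DRIP peaks. With it 6075 NELF-A peaks counted as off RNAPII, against 4944 in the main setting, so its values are over another set of peaks.

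**Figure D3:**
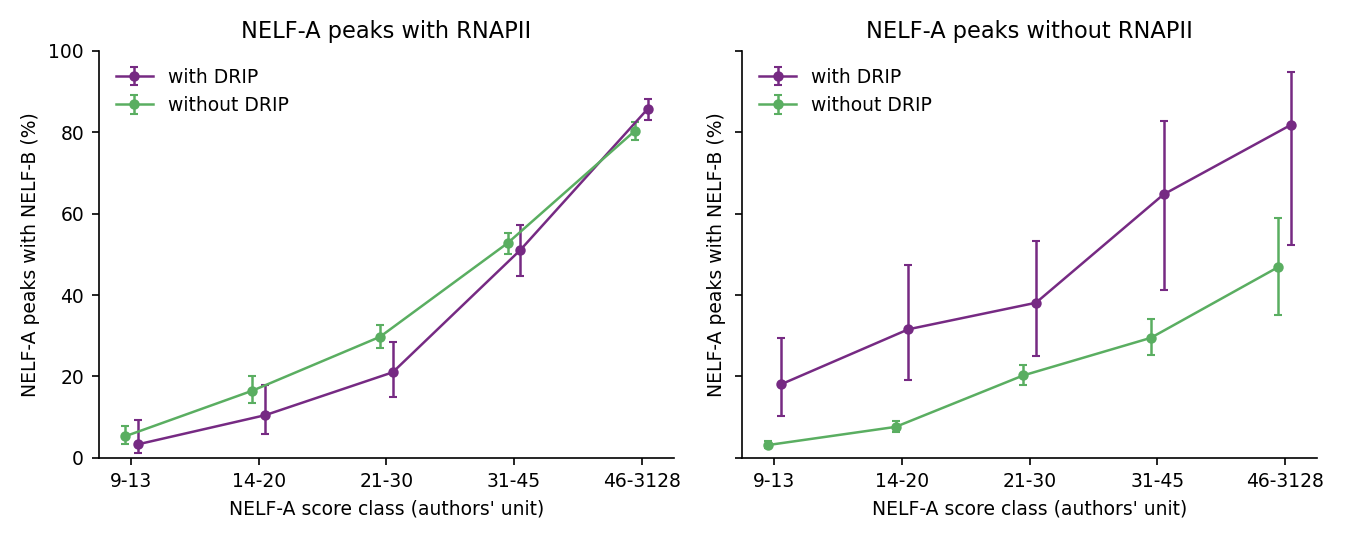
Share of NELF-A peaks that overlap NELF-B (%) in 5 classes of NELF-A score, with and without DRIP, for peaks on RNAPII (left) and off RNAPII (right). Points are shares and bars 95% Wilson intervals; with RNAPII the DRIP points lie below the others at scores of 21 to 30 and above them at 46 and above, while without RNAPII they lie above in each class, and scores of 9 to 13 give 18.0% with DRIP and 3.14% without.

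Where both subunits were listed, their centres lay mostly within 1 grid step of each other, which the requirement of overlap and the small widths in part impose. Both lists use steps of 250 bp for their ends, so centres can differ only in steps of 125 bp. Over the 3422 pairs, the median distance between the centres was 125 bp, 90.5% (89.4 to 91.4%) had centres within 250 bp, and 1.72% (59 pairs) were more than 500 bp apart. Centres can coincide only where the widths differ by an even number of grid steps, which was so for 1769 pairs, and 58.8% of those (1041) had the same centre. In the other 1653 pairs, 84.4% (1395) were the smallest possible distance apart. Centres lay within 250 bp in 96.0% of pairs with a narrow NELF-A peak and 67.7% of pairs with one over 1500 bp, but a narrow peak leaves little room for a larger offset. As a share of one side of the NELF-A peak, from centre to end, the median offset was 33.3% at 750 bp, 20% at 1250 bp and 25% at 2000 bp.

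The NELF-B peak was mostly a shorter stretch inside the NELF-A peak. It lay inside it, with at least 1 end drawn in, in 2870 pairs (83.9%, 82.6 to 85.1%) and had identical ends in 300 (8.77%). NELF-A lay inside NELF-B in 66 pairs (1.93%), and 186 (5.44%) overlapped in part. For the 2870, the medians were 1250 bp for NELF-A and 750 bp for NELF-B, and each side had a median margin of 250 bp. The NELF-B width rose less than the NELF-A width. Its median was 500 bp at NELF-A peaks of 500 to 1000 bp, 1000 bp at those of 2000 bp and 750 bp at those of 2500 bp. As a share of the NELF-A width this fell, with some ups and downs, from 100% at 500 bp to 50% at 1000 and 2000 bp and 30% at 2500 bp. Only 37 of 3925 NELF-B peaks were 250 bp wide, so 500 bp was nearly the least NELF-B width. The fall up to 1000 bp follows from a median that stayed there. NELF-B width also rises with NELF-B score, and the parts of depth and threshold in the narrower NELF-B peaks cannot be told apart.

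**Figure D4:**
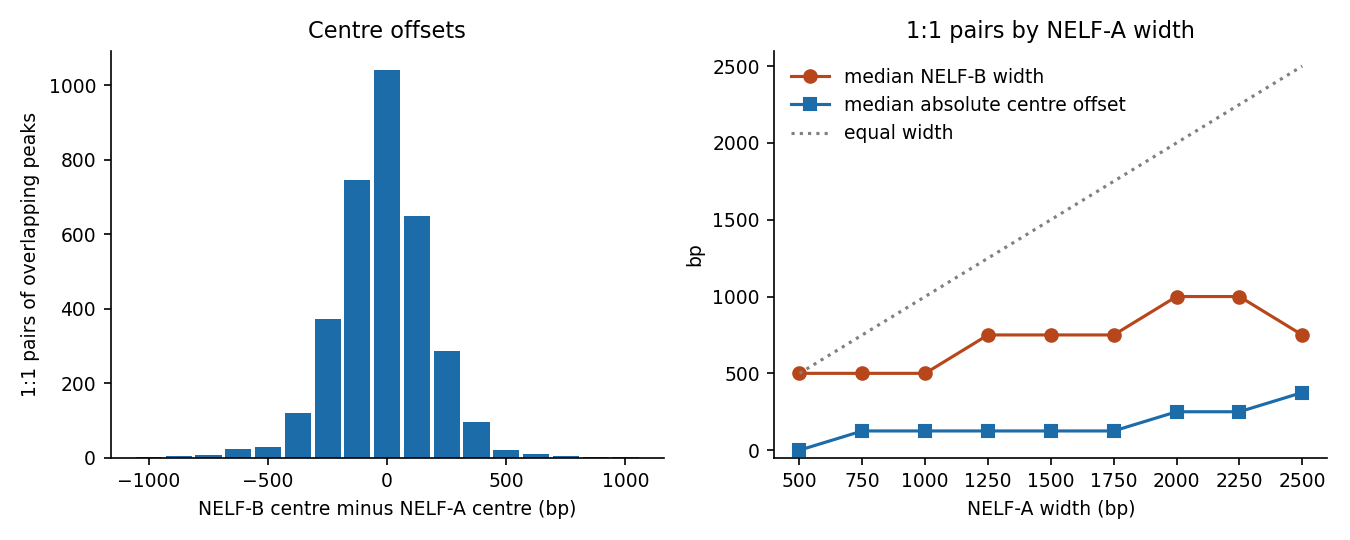
Left, number of 1:1 pairs by the distance from the NELF-A centre to the NELF-B centre (bp, within 1000 bp); right, median NELF-B width and median absolute centre offset (bp) against NELF-A width (bp), for widths with at least 20 pairs, with a dotted line at equal width. The pairs gather at 0, where 1041 lie, and the median NELF-B width lies between 500 and 1000 bp over NELF-A widths of 500 to 2500 bp.

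A few broad NELF-A peaks overlapped more than 1 NELF-B peak. Of the NELF-A peaks with NELF-B, 99 overlapped 2 NELF-B peaks and none more than 2. In 46 of the 99 the NELF-B peaks touched each other, so that they form 1 unbroken stretch listed in parts, and the median gap was 250 bp, a single grid step. These NELF-A peaks made up 13.9% (74 of 532, 11.2 to 17.1%) of those over 1500 bp and 1.04% (25 of 2401) of those of 1000 to 1500 bp. The 2 NELF-B centres lay a median of 875 bp apart (quartiles 625 and 1062.5 bp), and on opposite sides of the NELF-A centre in 90 of the 99. The overlap of 2 separate peaks with 1 NELF-A peak, of median width 2000 bp here, in part imposes such positions. RNAPII overlapped 94 of the 99 sites and DRIP 62 (62.6%). The RNAPII count is close to the share among all NELF-A peaks over 1500 bp, 93.4%. DRIP overlapped 24.5% of all NELF-A peaks with NELF-B, and its share at like width was not examined. In the reverse direction, 15 NELF-B peaks overlapped 2 NELF-A peaks.

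Relative to RNAPII, the NELF-A centre lay nearer the middle of the polymerase peak somewhat more often than the NELF-B centre. The median distances were mostly the same, but over all sites fewer NELF-B than NELF-A centres lay within 250 bp of that middle. The positions were compared at 2659 sites with 1 peak of each subunit on 1 RNAPII peak. NELF-A was nearer the RNAPII centre at 980 sites, NELF-B at 735, and both were equally far at 944, so NELF-B was nearer at 42.9% (40.5 to 45.2%) of sites with a difference. The share was 45.6% (42.7 to 48.4%) for RNAPII peaks up to 1500 bp, 36.1% (31.4 to 41.1%) for those between that and 3 kb, and 39.8% (33.2 to 46.8%) for those of 3 kb or more. The median distance to the RNAPII centre was 125 bp for both subunits over all sites and 250 bp for both in the middle group. The shares of centres within 250 bp differed, with 79.7% of NELF-A and 74.4% of NELF-B over all sites. They were 93.7% and 91.03% for RNAPII peaks up to 1500 bp, and 68.6% and 51.03% in the middle group. In the last group the median distance was 1500 bp for NELF-A and 1562.5 bp for NELF-B. There, 7.30% of NELF-A and 7.66% of NELF-B centres lay within 250 bp. NELF-B peaks are also narrower, and the part of that in the result was not tested.

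Chromosomes differed little once the NELF-A score was considered. The share of NELF-A peaks with NELF-B ran from 29.3% on chromosome 15 to 38.4% on chromosome 18 among the 19 autosomes, and the intervals of 18 of the 20 chromosomes contain the share of the whole list. Chromosome 18 (38.4%, 33.04 to 44.0%) lay just above it. The X chromosome lay below, with 21.9% (53 of 242, 17.2 to 27.5%), and it had 3.97 NELF-A peaks per NELF-B peak where autosomes had 2.36 to 3.02. NELF-A peaks on the X chromosome also scored lower, with a median of 18 against 25 on autosomes, and its mix of score classes alone would give 23.0%. Against autosomes at like score, the X chromosome had an odds ratio of 0.91 with limits of 0.62 and 1.32, which span 1. NELF-B peaks had NELF-A at 85.2% (74.3 to 92.0%) on the X chromosome and at 92.6% on autosomes.

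**Figure D5:**
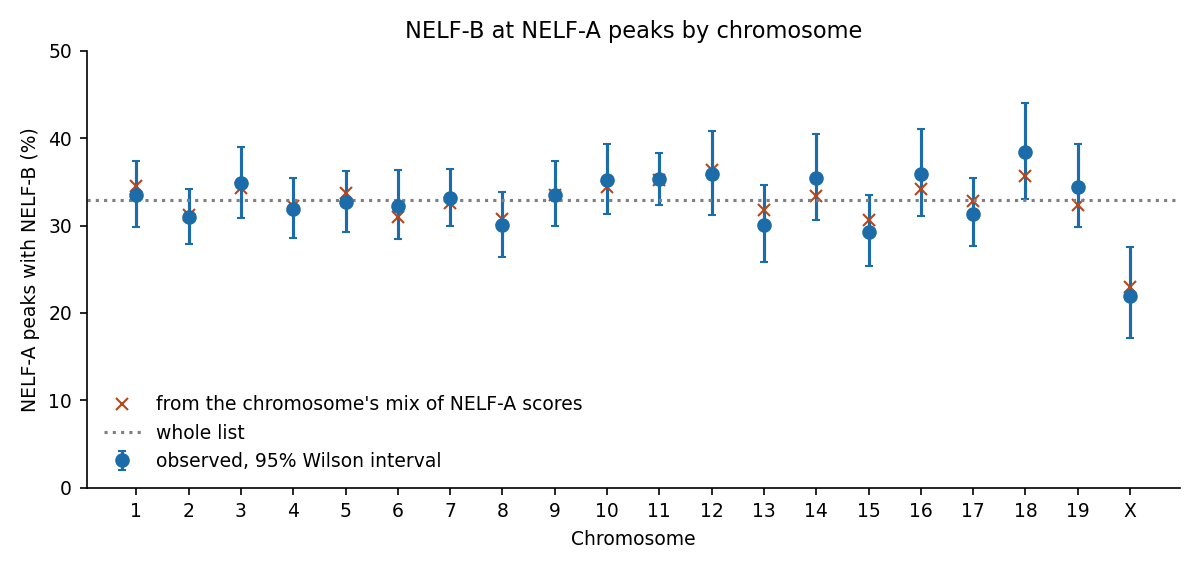
Share of NELF-A peaks that overlap NELF-B (%) on each of 20 chromosomes. Circles are observed shares with 95% Wilson intervals, crosses the share that each chromosome's mix of 5 score classes would give at the shares of the whole list, and the dotted line the whole list at 32.9%; the X chromosome, at 21.9%, lies below the line and close to its cross at 23.0%.

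The 5 NELF-A peaks of highest score had NELF-B, and all 5 lay in regions of extra-high signal, where at least 3 of the 4 lists have a peak among their most extreme. There were 16 such regions, and 39 of the 42 NELF-A peaks in them had NELF-B, against 32.9% of all NELF-A peaks. This count follows in large part from the rule, since 3 of 4 lists cannot be reached without an extreme peak of NELF-A or NELF-B. On chromosome 17 from 39979751 to 39986000, both subunits ranked first by score in peaks with identical ends, with a NELF-A score of 3128 and a NELF-B score of 1092. On chromosome 2 (98506251 to 98507750) the ends were also identical and both ranked high, at 4 for NELF-A and 3 for NELF-B. In the block near 3 Mb of chromosome 11, the ends differed: NELF-A ran from 3080501 to 3097250 and NELF-B from 3080501 to 3100250. The 3 widest peaks of both lists lay in that block. By the rule, RNAPII or DRIP was extreme in each of these regions as well, and the control is not given. Whether the signal there reflects binding of NELF was not tested.

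Outside those regions, the leading NELF-A peaks were 3250 to 3750 bp wide, lay on RNAPII and DRIP, and 4 of the first 5 held 2 NELF-B peaks. The first, on chromosome 12 from 92826251 to 92829750, had a NELF-A score of 316, rank 11, and the stronger of its NELF-B peaks, from 92828001 to 92829250, had a NELF-B score of 39, rank 73. On chromosome 8 from 11555001 to 11558750, the NELF-A score was 298 and the stronger NELF-B peak, from 11557251 to 11558750, scored 52, rank 35. The peak of rank 13, on chromosome 17 from 34255501 to 34259000, scored 290, and its stronger NELF-B peak also scored 52. A second peak on chromosome 8, from 87499751 to 87503250, scored 287. The next, on chromosome 5 (22938251 to 22941500), scored 285 and held a single NELF-B peak, from 22938751 to 22940500, whose centre lay 250 bp from its own. At the chromosome 5 site, with its single NELF-B peak, the NELF-A rank was 15 and the NELF-B rank 59, so the ranks differed. At the other 4 sites the NELF-B score and rank are those of 1 of 2 peaks and do not stand for the whole site.

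The strongest NELF-A peaks without NELF-B were also mostly broad RNAPII sites. On chromosome 15 (96115251 to 96119250), a NELF-A peak of 4000 bp with a score of 163, rank 62, overlapped RNAPII and DRIP, and the nearest NELF-B peak was 171500 bp away. On chromosome 19 from 46574001 to 46579000 lay the widest NELF-A peak outside the regions of extra-high signal, 5000 bp, with a score of 125, on RNAPII and DRIP, and its nearest NELF-B peak was 68500 bp away. The one on chromosome 2 (72313501 to 72314750), which scored 121 in 1250 bp, overlapped neither RNAPII nor DRIP. Those on chromosome 16 from 94790251 to 94793000 and on chromosome 3 from 95621751 to 95624250 scored 113 and 102, both on RNAPII. In all, 398 of the 2126 NELF-A peaks scoring 46 and above lacked NELF-B. Their median score per 250 bp was 9.2 against 12 for those with NELF-B, at the same median width of 1500 bp, and 91.0% of them lay on RNAPII. In 9 of them a NELF-B peak lay within 1000 bp.

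NELF-B peaks without NELF-A were few, narrow and weak. They numbered 294, of which 216 (73.5%) had the lowest score, 7, and 277 (94.2%) were 500 bp or narrower. RNAPII overlapped 9.86% of them (29 of 294, 6.96 to 13.8%), against 83.3% of NELF-B peaks with NELF-A. Among NELF-B peaks of score 7 or 8 the shares on RNAPII were 10.1% (27 of 267) without NELF-A and 70.5% (938 of 1330) with it. DRIP overlapped 7.12% and 12.03% of the same groups, whose intervals of 4.60 to 10.8% and 10.4 to 13.9% overlap slightly. NELF-B without NELF-A was therefore set apart by RNAPII more than by DRIP at these scores.

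By the way they were chosen, these NELF-B peaks lie apart from NELF-A, and the distance varied widely. Of the 294, 21 touched a NELF-A peak without a gap, 56 (19.05%) lay within 1000 bp of one and 79 (26.9%) more than 100 kb from any. For NELF-A peaks without NELF-B, whose distance is to the shorter list, the shares were 3.11% within 1000 bp and 45.4% over 100 kb. The highest score was 16, in a 500 bp peak on chromosome 9 from 24346251 to 24346750 that overlapped DRIP and not RNAPII. The next, with 15, lay on chromosome 19 from 9058751 to 9059750 and overlapped both, 3500 bp from a NELF-A peak. On chromosome 4, those from 3017251 to 3018250 and from 145742751 to 145743750 scored 14 each and overlapped DRIP alone. The fifth, on chromosome 7 from 31349001 to 31349750, scored 12 and lay 250 bp from a NELF-A peak.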

How the data were processed

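Per the submitters' processing notes, the authors aligned reads with BWA to mm9. Which program called the peaks, at what threshold and against what control is not given in the sources used here. Each deposited list holds positions and the authors' score, 1 whole number per peak with no stated unit, used only to rank peaks within its list. The files name no genes and the gene tables at hand are of another build, so genes, marker genes and sequences are not reported here, although gene lists had been planned. Lists were read as deposited, with pandas 2.3.3. Overlap meant at least 1 bp in common with any peak of the second list. Intervals of shares are 95% Wilson intervals, and scipy 1.17.1 was used. Odds ratios carry Woolf intervals, and pooled ones are Mantel-Haenszel estimates with Robins-Breslow-Greenland intervals. All intervals cover counting error alone, since each target has 1 list, neighbouring peaks are not independent and peaks are not replicates. No p-values were computed. The overlap and pooling code was tested on simulated peaks with known answers. Regions named are the 5 peaks of highest score with and without the other subunit and the 3 widest of each list, with and without regions of extra-high signal. For such a region, 3 or more lists must each contribute a peak that is among its 10 highest scores or its top 1% in score per base. The score and width classes, the lists of alternatives and the rule for named regions were chosen with earlier results of these data known. Of the 5 samples in the series, DRIP-seq after RNase H was not analysed here.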

Additional observations from a re-analysis of the deposited data

How the results depend on the processing

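Leaving out replicates was not possible with 1 list per target. No paired analysis was possible because each subunit has a single list with no replicate number. Of 147 recomputed values, 126 kept their direction and call or stayed within their interval, among them every value with 50% of the shorter peak required (17), within 250 bp (17), with touching peaks merged (17), without the X chromosome (16) and without regions of extra-high signal (17). The last setting and those for DRIP, for the X chromosome, for NELF-A at NELF-B peaks and for positions were chosen after the data were seen. Counting peaks within 1000 bp gave NELF-B at 34.7% of NELF-A peaks (lowest score class 7.45%, narrow peaks 15.01%), NELF-A at 93.8% of NELF-B peaks, centres within 250 bp in 84.4% of paired peaks, where the main value over all NELF-A peaks with NELF-B was 89.0%, and a DRIP odds ratio on RNAPII of 1.14. With every peak set to 500 bp, NELF-B lay at 31.5% of NELF-A peaks (highest score class 75.6%, wide peaks 60.3%), NELF-A at 86.98% of NELF-B peaks, centres within 250 bp in 92.9%, and the DRIP odds ratio on RNAPII turned to 0.97 (0.74 to 1.28). Next, every list, RNAPII and DRIP included, was cut to scores at or above its median (upper 50%). NELF-B then lay at 36.7% of NELF-A peaks (highest score class 65.2%, narrow peaks 24.8%, wide peaks 60.8%) and NELF-A at 93.6% of NELF-B peaks. The odds ratio of the X chromosome turned to 1.19 (0.70 to 2.03), and the lowest score class held no peaks. The falls in the highest score class and at wide peaks follow from leaving out NELF-B peaks below the median score, since both kept all their NELF-A peaks. Of the 4982 narrow NELF-A peaks, 605 remained, so that share is over other peaks than the main one. Pairs of 1 NELF-A with 1 NELF-B peak had centres within 250 bp in 90.5%. Classes of score per 250 bp gave a DRIP odds ratio on RNAPII of 1.41. The odds ratio for RNAPII stayed between 1.67 and 2.45 in every setting when pooled, and unpooled it fell from 7.78 to 4.61 in the upper 50% and to 4.46 with every peak set to 500 bp. Both of these settings also cut or resized the RNAPII and DRIP peaks. The NELF-A peaks counted as on RNAPII or with DRIP were thus not the same as in the main setting. For the other changes the cause was not tested. Depth is unknown, so it cannot be said which weak sites a deeper NELF-B library would list.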

Other observations

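Along the chromosome, NELF-B centres lay more often at the lower coordinate than at the higher coordinate of the NELF-A centre. Over the 3422 pairs, 1303 lay lower, 1078 higher and 1041 at the same place, so 54.7% (52.7 to 56.7%) of those with a difference lay lower, with a mean offset of -15.7 bp. More pairs lay lower on 16 of the 20 chromosomes. Off RNAPII the share was 60.8% (234 lower against 151 higher, 55.8 to 65.5%) and on RNAPII 53.6% (51.4 to 55.7%). Against RNAPII centres, NELF-A lay lower in 53.3% (51.8 to 54.9%) and NELF-B in 56.4% (54.3 to 58.5%), and against DRIP centres both intervals include 50%. In the upper 50% of each list by score the NELF-B share was 50.1% (47.5 to 52.8%). The cause was not tested.

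By distance to the next NELF-A peak, the share with NELF-B was highest at 10 to 100 kb. NELF-B was listed at 25.1% (22.6 to 27.7%) of NELF-A peaks with another NELF-A peak within 1 kb. Where the next one lay 1 to 10 kb away it was listed at 29.6% (27.7 to 31.6%), and at 10 to 100 kb at 35.8% (34.6 to 37.1%). At NELF-A peaks with none within 100 kb it was 32.3% (30.2 to 34.4%), and at like score the odds ratio of these against those at 10 to 100 kb was 0.87 (0.76 to 0.996). The crowded peaks also scored lower, with a median of 18 against 26, and at like score the odds ratio of peaks with a neighbour within 1 kb against all others was 0.85, with limits of 0.71 and 1.02 that span 1.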
